A study of Neotoma stephensi and Rattus norvegicus with 6 samples.

Results

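The genes described here encode the enzymes and scaffold proteins of the cornified envelope. There are 10 of them, taken by gene symbol from the 15481 mouse genes to which reads were assigned, and all 10 were found in the files and passed the filter on low counts. They are the transglutaminases Tgm1, Tgm3 and Tgm5, the scaffold proteins Evpl, Ppl and Scel, the envelope-associated and secreted proteins Cnfn, Sbsn and Krtdap, and the protease Casp14. RNA was sequenced from the foregut (the fornix ventricularis of the stomach) of 3 Stephens' woodrats (Neotoma stephensi) and 3 Sprague Dawley lab rats (Rattus norvegicus). All 6 animals were females. The woodrats were caught in the wild and fed juniper foliage until dissection, whereas the lab rats were purchased and kept on rat chow in a room shared with woodrats, so species, origin and diet cannot be told apart. The labels call every animal virgin, although the study's methods state that this was unknown for the woodrats. Ages are not given in the sources used here. The study asked which genes go with a foregut that hosts a fermenting microbial community, as that of woodrats does, and predicted a difference between the species in genes of epidermal differentiation.

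In a keratinized stratified squamous epithelium, cells leave the basal layer, fill with keratin and end as dead, flattened cells. During this process the plasma membrane is replaced by the cornified envelope, a shell of proteins joined by covalent bonds. Envoplakin and periplakin assemble beneath the membrane and begin the scaffold, transglutaminases then join them to involucrin, loricrin and small proline-rich proteins, and lipids are attached to the outer face. The nonglandular foregut of rodents is lined by an epithelium of this kind.

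The libraries held between 5439642 and 7932637 counted reads, of which the 10 genes took 0.529% to 1.26% in woodrats and 1.73% to 2.37% in lab rats. Without Krtdap, the other 9 genes took 0.380% to 1.06% in woodrats and 0.853% to 0.943% in lab rats, which overlap. All abundances below are CPM values, in which the reads of a gene are scaled to the size of the library, after TMM normalization, which corrects for differences in library composition. With this scaling, 3 reads corresponded to between 0.355 and 0.586 CPM. Markers of the tissue were read in every animal. The summed abundance of 8 squamous epithelium genes was 1050, 2174 and 4426 CPM in woodrats 1, 2 and 3 and ranged from 4068 to 5057 CPM in lab rats. That of 8 smooth muscle genes was 123590, 59454 and 40331 CPM in the same woodrats and ranged from 11105 to 20299 CPM in lab rats. Woodrat 1 was the highest animal for all 8 smooth muscle genes. It also had the lowest sums of squamous and suprabasal genes, but not of basal genes, which were lowest in lab rat 1. Mitochondrial genes took 11.6%, 9.29% and 6.28% of the reads in woodrats 1, 2 and 3 and 5.51% to 5.81% in lab rats. In whole tissue, fewer epithelial cells and less RNA per cell cannot be told apart. Suprabasal genes summed to between 18795 and 63401 CPM in woodrats and between 69620 and 84720 CPM in lab rats, with Krt1 and Krt10 contributing most in lab rats. However, 4 of the 6 suprabasal genes had a positive log2 fold change (median 0.62), and the called gene, Krt4, was higher in woodrats (3.34, FDR = 0.00626). Basal genes summed to between 4800 and 10859 CPM in woodrats and between 4717 and 7177 CPM in lab rats. Fibroblast genes summed to 1055 to 2532 CPM in woodrats and 2004 to 2581 CPM in lab rats, and leukocyte genes to 7.03 to 22.1 CPM and 33.1 to 69.0 CPM. The edgeR test described below called 0 of 8 squamous, 0 of 7 basal, 1 of 6 suprabasal, 2 of 8 smooth muscle, 1 of 6 fibroblast, 3 of 4 leukocyte and 1 of 2 glandular genes tested. Over all genes tested, 20.0% were called, and the counts of these short lists were not tested against that share. The 5 genes of the glandular stomach found in the files summed to between 6.74 and 11.5 CPM. Muc5ac, Gkn1, Gkn2 and Pgc had no reads in any lab rat, so the sums of the lab rats are Atp4a alone. The called gene was Muc5ac, with 17, 12 and 33 reads in woodrats 1, 2 and 3. Its log2 fold change of 7.32 (FDR = 0.00305) depends on the prior count of the fit. Atp4a went the other way (-0.51, FDR = 0.216).

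**Figure D1:**
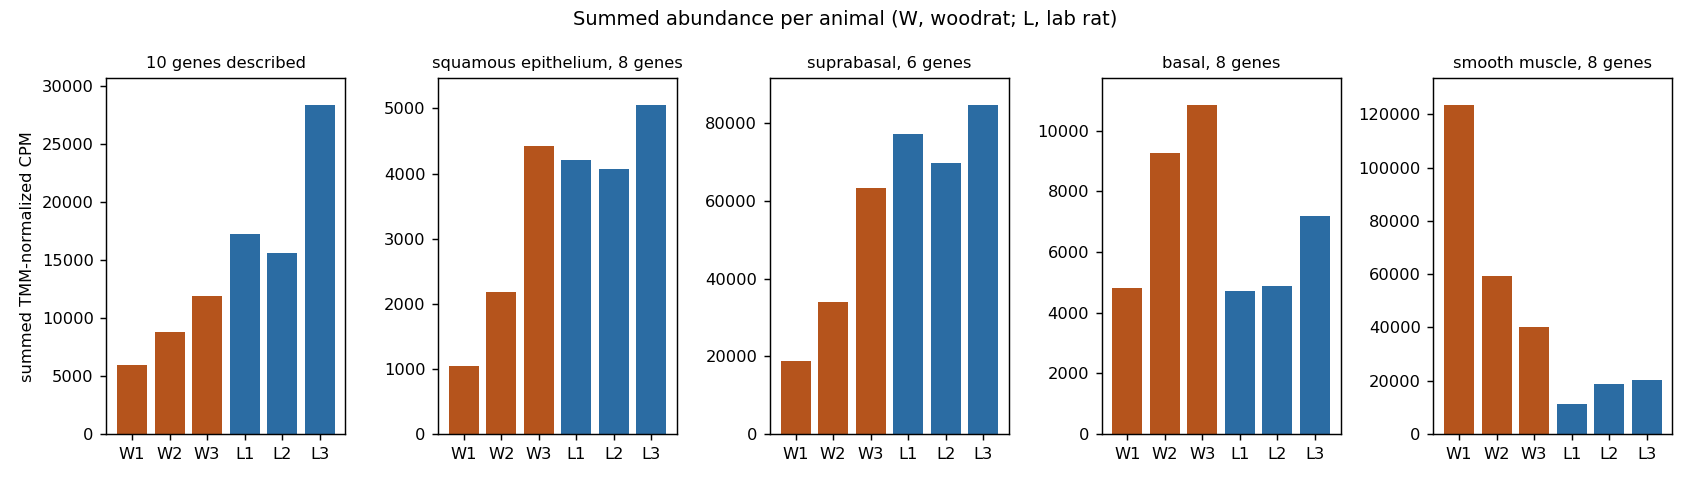
Bars give the summed TMM-normalized CPM of a gene list in each animal (W1 to W3, woodrats; L1 to L3, lab rats). The 10 genes summed to at most 11852 CPM in woodrats and at least 15556 CPM in lab rats, a gap carried by Krtdap, since the other 9 genes summed to 4242 to 9977 CPM in woodrats and overlapped the 7679 to 11289 CPM of lab rats, while the smooth muscle genes were highest in woodrat 1.

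Of the 10 genes, 1 was called differentially abundant at an FDR below 0.01 (edgeR quasi-likelihood test), and it was lower in woodrats. Among all 12603 genes tested, 20.0% were called, 10.3% higher and 9.71% lower in woodrats. The called gene was Krtdap, with a log2 fold change of -2.49. None of the 10 genes was called higher in woodrats by edgeR or by DESeq2, and 1 of them, Tgm5, was higher at an unadjusted p below 0.05. In either direction 3 of the 10 genes passed that unadjusted threshold, against 49.7% of all genes tested. DESeq2 called 2 genes lower, Krtdap and Cnfn, against 31.1% of all genes called by DESeq2 and 15.3% called lower. The abundances of the 3 woodrats and the 3 lab rats did not overlap for Krtdap, Cnfn and Tgm5, or 3 of the 10 genes, against 56.2% of all genes tested. The median log2 fold change of the 10 genes was -0.28, and it was 0.03 over all genes tested. When woodrat 1 and lab rat 3, the lab rat that differed most from the others in these genes, were left out, 0 of the 10 genes were called, against 13.5% of all genes in that fit, and the median was 0.08. The median also depended on single woodrats, since it was 0.15 without woodrat 1 and -0.91 without woodrat 3. When the libraries were scaled to the 8 squamous genes instead of by TMM, which moved the median log2 fold change of all genes to 1.90, no gene of the 10 was called, Krtdap was at -0.76 (FDR = 0.637) and the other 9 genes were positive. Relative to that median, Tgm5 alone was higher in woodrats.

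**Figure D2:**
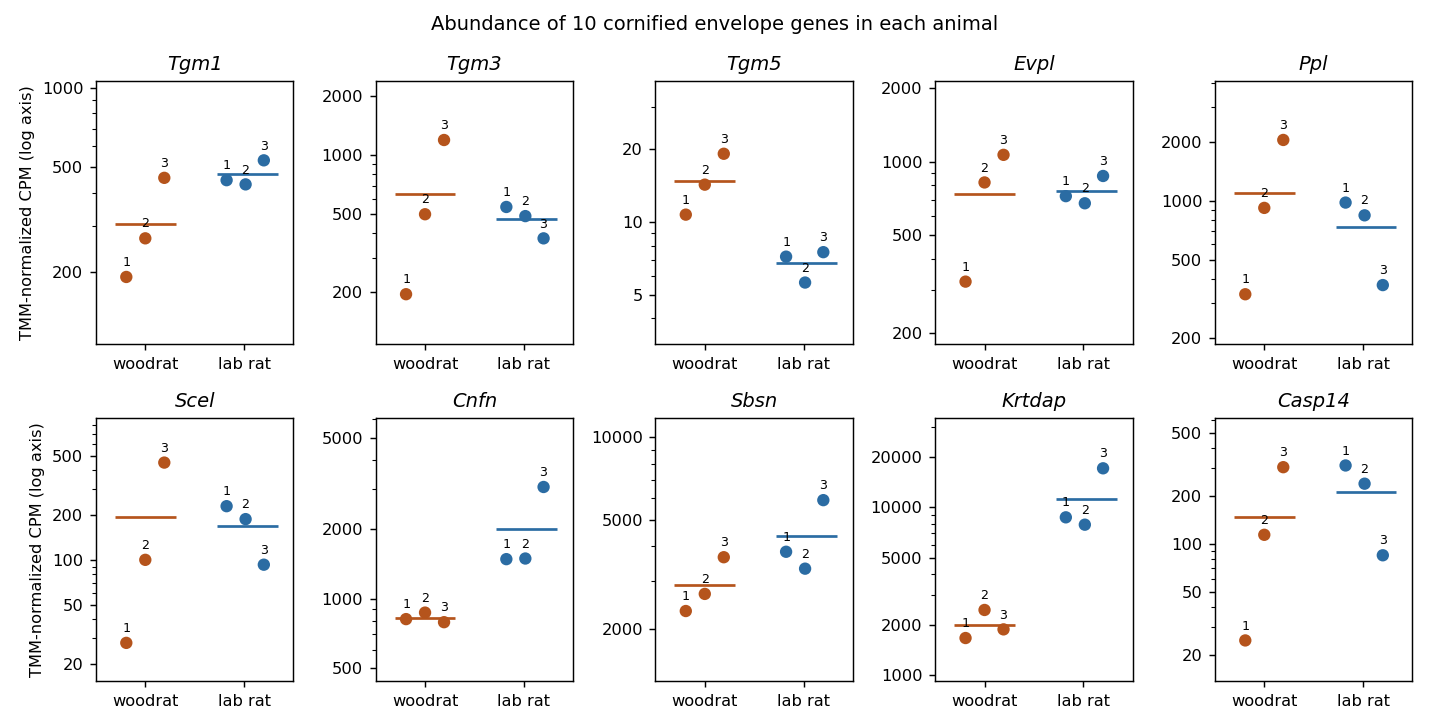
Each panel gives the TMM-normalized CPM of 1 gene on a log axis, with 1 point per animal, its number beside it, and a line at the mean of the 3 animals. Krtdap, Cnfn and Tgm5 are the genes in which the species do not overlap, and woodrat 1 is the lowest animal for 8 of the 10 genes.

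Transglutaminases catalyze the bonds between envelope proteins. Transglutaminase 1 (Tgm1, ENSMUSG00000022218.14), the membrane-bound enzyme of keratinocytes whose loss in humans causes lamellar ichthyosis, had 191, 268 and 455 CPM in woodrats 1, 2 and 3 and 446, 430 and 530 CPM in lab rats 1, 2 and 3. Woodrat 3 lay within the range of the lab rats, whereas woodrats 1 and 2 lay below it. Woodrats averaged 305 ± 136 CPM and lab rats 469 ± 54.0 CPM (SD, n = 3 each), with a log2 fold change (woodrat minus lab rat) of -0.62 and its 95% interval of -1.42 to 0.18 (FDR = 0.188). Without woodrat 1 it was -0.37.

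Transglutaminase 3 (Tgm3, ENSMUSG00000027401.9) is a soluble enzyme, activated by proteolysis, that acts in the epidermis and the hair follicle. Its abundance was 195, 499.9 and 1196 CPM in woodrats 1, 2 and 3 and 545, 489 and 377 CPM in lab rats 1, 2 and 3. The woodrats spanned the whole range of the lab rats, and woodrat 3 exceeded woodrat 1 by 6.13 times. The log2 fold change was 0.42, with a 95% interval of -0.86 to 1.71 (FDR = 0.576), and its sign depended on 1 animal, since without woodrat 3 it was -0.43. The interval is wide on both sides of 0, so neither a difference nor similar abundance was shown.

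Transglutaminase 5 (Tgm5, ENSMUSG00000053675.8), an epidermal enzyme whose loss causes acral peeling of the skin, had the fewest reads of the 10 genes, with 55, 103 and 162 counted in the woodrats and 58, 34 and 39 counted in the lab rats. These correspond to 10.7, 14.3 and 19.2 CPM in woodrats 1, 2 and 3 and to 7.20, 5.62 and 7.51 CPM in lab rats 1, 2 and 3. Every woodrat was above every lab rat. The log2 fold change of 1.12 (standard error 0.33) had a 95% interval of 0.38 to 1.87, but its FDR of 0.0255 did not pass the threshold of 0.01. The fits that left out 1 animal gave values from 0.89 to 1.30.

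The reads of the 3 transglutaminases were also compared within each animal, which does not depend on the normalization between libraries. Tgm3 took 49.1%, 63.9% and 71.6% of them in woodrats 1, 2 and 3, whereas in lab rats 1, 2 and 3 it took 54.6%, 52.9% and 41.2%. Tgm5 took 2.70% (95% Clopper-Pearson interval 2.04% to 3.50%), 1.83% (1.49% to 2.21%) and 1.15% (0.979% to 1.34%) in the woodrats. In the lab rats it took 0.721% (0.548% to 0.932%), 0.608% (0.422% to 0.849%) and 0.821% (0.585% to 1.12%). The intervals cover counting error only. Shares of reads follow transcript length as well as abundance, so they are compared only between animals. The share of Tgm5 was above that of every lab rat in all 3 woodrats, although the interval of woodrat 3 overlapped that of lab rat 3. There were 1.02, 1.86 and 2.63 Tgm3 reads per Tgm1 read in woodrats 1, 2 and 3, whereas lab rats 1, 2 and 3 had 1.22, 1.14 and 0.710. The mean log2 ratio differed by 0.78 between the species, and woodrat 1 lay within the lab rats (two-sided exact permutation test, p = 0.3, or 0.45 after adjustment over 3 ratios, where 0.1 is the smallest p that 3 animals against 3 allow).

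Among the scaffold proteins, envoplakin (Evpl, ENSMUSG00000034282.3) is a plakin that pairs with periplakin and links desmosomes and keratin filaments to the envelope. It had 324, 822 and 1065 CPM in woodrats 1, 2 and 3 and 723, 676 and 873 CPM in lab rats 1, 2 and 3. Woodrat 1 was below all lab rats and woodrat 3 above them. The means of 737 ± 378 CPM and 757 ± 103 CPM (SD, n = 3 each) gave a log2 fold change of -0.04 with a 95% interval of -1.01 to 0.94 (FDR = 0.949). Leaving out woodrat 1 turned it to 0.32, and leaving out lab rat 3 turned it to 0.08.

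Periplakin (Ppl, ENSMUSG00000039457.3) had 333, 921 and 2048 CPM in woodrats 1, 2 and 3 and 980, 844 and 371 CPM in lab rats 1, 2 and 3. Lab rat 3 was close to woodrat 1, and woodrat 3 was the highest animal. Ppl had a log2 fold change of 0.59, with a 95% interval of -0.84 to 2.02 (FDR = 0.480), which was -0.22 without woodrat 3 and 0.27 without lab rat 3. There were 0.971, 0.893 and 0.520 Evpl reads per Ppl read in woodrats 1, 2 and 3, whereas lab rats 1, 2 and 3 had 0.737, 0.801 and 2.35. The difference in mean log2 ratio of -0.54 lay within the spread between animals (two-sided exact permutation test, p = 0.6, adjusted 0.6), and it was -0.003 without lab rat 3.

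Sciellin (Scel, ENSMUSG00000022123.8), a protein cross-linked into the envelope late in differentiation, varied most of the 10 genes among woodrats. It had 27.7, 100.1 and 450 CPM in woodrats 1, 2 and 3, a range of 16.2 times, and 229, 188 and 92.8 CPM in lab rats 1, 2 and 3. The lab rats lay between woodrats 1 and 3. For Scel the log2 fold change was 0.18 with a 95% interval of -1.68 to 2.04 (FDR = 0.877), and it was -1.41 without woodrat 3 and -0.11 without lab rat 3.

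Caspase 14 (Casp14, ENSMUSG00000005355.8) is a protease of cornifying keratinocytes that takes part in the breakdown of filaggrin. Its abundance was 24.6, 114 and 305 CPM in woodrats 1, 2 and 3 and 312, 240 and 84.7 CPM in lab rats 1, 2 and 3. Woodrat 3 lay just below lab rat 1, and lab rat 3 lay below woodrat 2. For Casp14 the log2 fold change was -0.52 with a 95% interval of -2.29 to 1.25 (FDR = 0.620). Leaving out woodrat 3 gave the value farthest from 0, -1.61 (FDR = 0.0976), and leaving out woodrat 1 gave -0.02.

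Keratinocyte differentiation-associated protein (Krtdap, ENSMUSG00000074199.6) is a small secreted protein of suprabasal cells. Woodrats 1, 2 and 3 had 8530, 17632 and 15835 of its reads, and lab rats 1, 2 and 3 had 70195, 47620 and 88552. These numbers correspond to 1666, 2447 and 1876 CPM in these woodrats and 8711, 7877 and 17056 CPM in these lab rats. The lowest lab rat was above the highest woodrat. The means of 1996 ± 404 CPM and 11215 ± 5076 CPM (SD, n = 3 each) gave a log2 fold change of -2.49 (standard error 0.49, 95% interval -3.60 to -1.38, FDR = 0.00523), or 5.62-fold more in lab rats. The size of this difference changed little when 1 animal was left out, from -2.71 to -2.05. However, its FDR stayed below 0.01 in only 1 of these 6 fits, that without lab rat 3 (0.00787), and in the others it ran from 0.0120 without lab rat 2 to 0.0262 without woodrat 2.

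Cornifelin (Cnfn, ENSMUSG00000063651.10) is a small protein of the cornified envelope. It had 814, 868 and 789 CPM in woodrats 1, 2 and 3, the narrowest range of the 10 genes in that species (1.10 times), and 1483, 1492 and 3054 CPM in lab rats 1, 2 and 3. Each lab rat was above all woodrats, and lab rat 3 was well above the other lab rats. The Cnfn log2 fold change of -1.29 (standard error 0.38) had a 95% interval of -2.16 to -0.42 and did not pass the threshold (FDR = 0.0273). Without lab rat 3 it was -0.85 (FDR = 0.0290), and DESeq2 gave -1.33 (adjusted p = 0.00171).

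Suprabasin (Sbsn, ENSMUSG00000046056.13), a secreted protein of suprabasal keratinocytes, had 2322, 2681 and 3650 CPM in woodrats 1, 2 and 3 and 3821, 3315 and 5899 CPM in lab rats 1, 2 and 3. Woodrat 3 lay above lab rat 2 and below the other lab rats. The Sbsn log2 fold change of -0.59 had a 95% interval of -1.50 to 0.32 (FDR = 0.266). Krtdap and Sbsn lie in the same genomic cluster in mammals, and their ratio was compared within each animal. Woodrats 1, 2 and 3 had 0.718, 0.913 and 0.514 Krtdap reads per Sbsn read, and lab rats 1, 2 and 3 had 2.28, 2.38 and 2.89. The mean log2 ratio was lower in woodrats by 1.85, or 3.60-fold, with no overlap between the species (two-sided exact permutation test, p = 0.1, the smallest possible, and 0.3 after adjustment over 3 ratios). Krtdap made up 50.5% to 60.2% of the reads of the 10 genes in lab rats and 15.8% to 28.2% in woodrats, in which Sbsn took 30.7% to 39.3%.

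**Figure D3:**
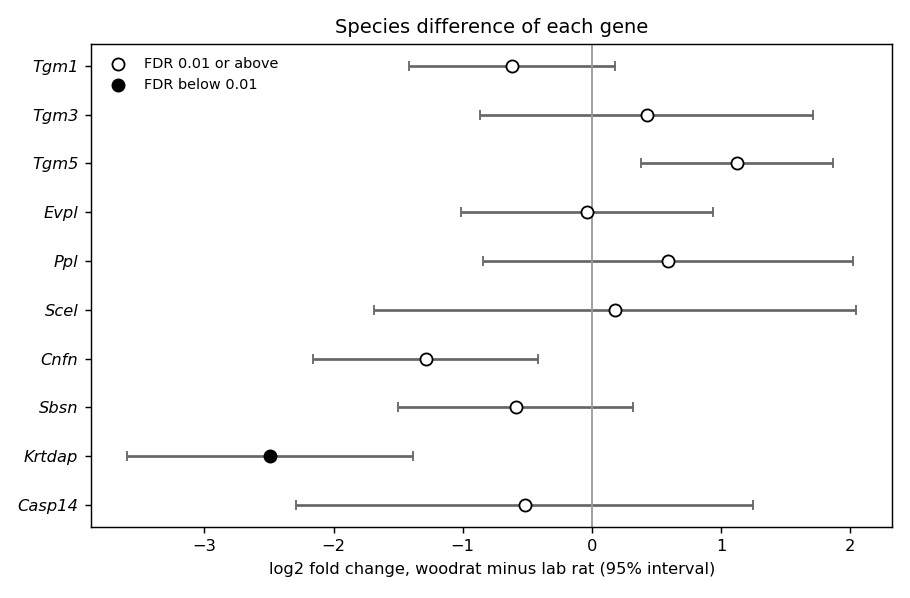
Points give the log2 fold change (woodrat minus lab rat) of each gene from the edgeR fit of all 6 animals, and bars give its 95% interval. The intervals of Krtdap, Cnfn and Tgm5 lie to one side of 0, those of the other 7 genes include it, and Krtdap is the filled point, at an FDR below 0.01. With scaling to squamous genes in place of TMM, the points of Tgm1, Evpl, Cnfn, Sbsn and Casp14 move to the right of 0, while the median of all genes moves to 1.90.

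The 10 genes differed widely in how much they varied between animals of one species. The median SD of log2 CPM over the 10 genes was 0.77 in woodrats, against 0.37 over all genes tested, and 0.52 in lab rats, against 0.37. In woodrats it ran from 0.07 for Cnfn to 2.01 for Scel. Casp14 and Scel had an SD in woodrats at the 98.9th and 99.3rd percentile of all genes tested, while Cnfn was at the 3.95th. Among the woodrats, woodrat 1 was the lowest for 9 of the 10 genes, and for 8 of them woodrat 3 was also the highest. Over all genes tested, 39.1% had woodrat 1 lowest and 27.2% had woodrat 3 highest as well. The same ordering appeared in the summed squamous markers, and the reverse in the summed smooth muscle markers and in the mitochondrial share of reads. Their part in the spread of the 10 genes was not tested.

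Expressed as log2 CPM minus the mean of the species, the genes fell into 3 patterns, described after their values were seen. Scel, Casp14, Ppl and Tgm3 varied together, low in woodrat 1, high in woodrat 3 and lower in lab rat 3 than in the other lab rats, with a Pearson r between 0.949 and 0.998 for each pair of genes over the 6 animals. For Casp14 the deviations were -1.94 in woodrat 1, 1.68 in woodrat 3 and -1.12 in lab rat 3. Tgm1, Tgm5 and Evpl were also low in woodrat 1 and high in woodrat 3 (r between 0.897 and 0.937 for each pair). In lab rat 3, however, they were slightly above the species mean, by 0.15 to 0.21. The first and second patterns were not sharply apart. Tgm3 had an r of 0.892 to Tgm1, 0.880 to Evpl and 0.831 to Tgm5, whereas Ppl had 0.706, 0.727 and 0.651. Krtdap and Cnfn (r = 0.932) hardly followed the order of the woodrats and were raised by 0.69 in lab rat 3, where Sbsn was raised by 0.49. Sbsn stood between patterns, with an r of 0.727 to Cnfn and 0.738 to Krtdap but 0.819 to Tgm5 and 0.786 to Tgm1, and it followed the order of the woodrats. Lab rat 3 was thus high for the secreted suprabasal proteins and Cnfn and low for Casp14, Scel, Ppl and Tgm3. The correlations share 6 libraries and their normalization and are given as a description.

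**Figure D4:**
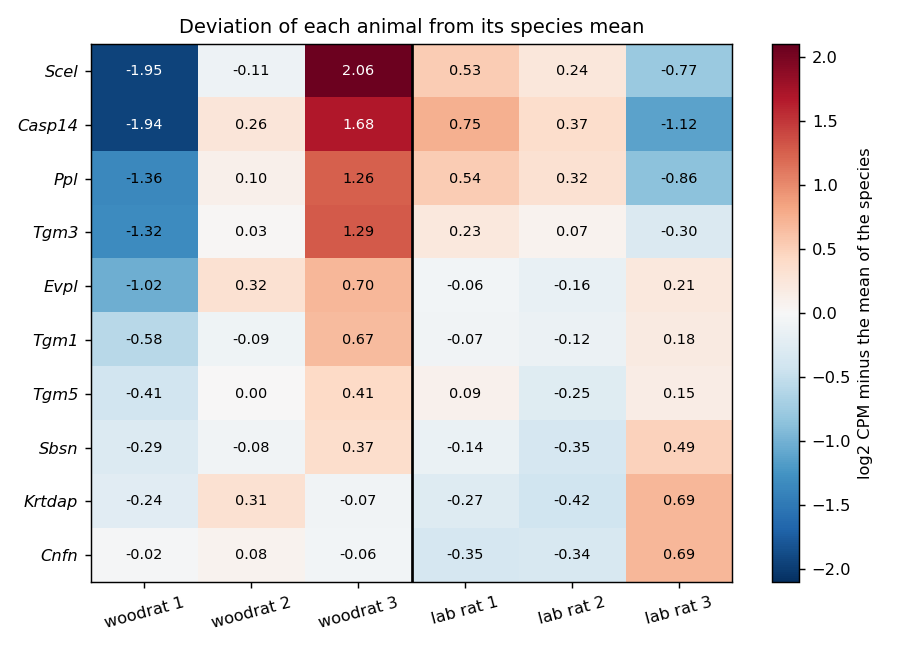
Cells give the log2 CPM of each gene (rows) in each animal (columns) minus the mean of the 3 animals of that species, with blue below and red above the mean. The upper 4 genes are lowest in woodrat 1 and highest in woodrat 3 and are negative in lab rat 3, where the lower 3 genes have their highest values.

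A wider set of 47 genes of the envelope was examined in 4 lists, of which 41 genes were tested. In all, 7 of them were called (17.1%, against 20.0% of all genes tested), 4 higher and 3 lower in woodrats, and their median log2 fold change was -0.22. Without woodrat 1 and lab rat 3, 4 were called, against 13.5% of all genes in that fit. Leaving out woodrat 2, lab rat 1 or lab rat 3 left 3 calls, and leaving out lab rat 2 left 4. Among all 12603 genes, calls fell from 2516 to 898 without woodrat 2 and to 936 without lab rat 1. They fell to 1305 without lab rat 3 and to 1050 without lab rat 2.

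Of the 5 other members of the transglutaminase family, 2 were tested and neither was called. At an unadjusted p below 0.05, 1 was lower in woodrats (the coagulation factor subunit F13a1), against 49.7% of all genes in either direction. DESeq2 called none, against 31.1% of all genes. Tgm2, the tissue transglutaminase found in many cell types, had 752, 276 and 162 CPM in woodrats 1, 2 and 3 and between 158 and 227 CPM in lab rats. Its log2 fold change of 1.04 (FDR = 0.141) was 0.18 without woodrat 1, the animal with the most smooth muscle RNA. The cause of the high Tgm2 in that animal was not tested. Tgm4, Tgm6 and Tgm7 had at most 1.07 CPM in any animal.

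Of 15 further envelope proteins, 14 were tested, with 3 called higher, 1 called lower and 10 not called. The called share was 28.6%, against 20.0% of all genes tested, and the 2 shares were not compared by a test. Involucrin (Ivl), the early precursor to which the plakins are joined, had 11.3, 8.61 and 7.82 CPM in woodrats 1, 2 and 3 and 383, 282 and 195 CPM in lab rats 1, 2 and 3. Every lab rat was far above every woodrat. This gave a log2 fold change of -4.96 (FDR = 0.000172, standard error 0.36), and the FDR stayed below 0.01 in all 6 fits that left out 1 animal. How divergence of Ivl reads from the mouse transcript acted on these counts in each species was not tested. The 3 called higher were Flg, Flg2 and Rptn, S100 fused-type proteins with long internal repeats whose read assignment is uncertain. Other tested proteins of this type were not called. These were Hrnr (0.49, FDR = 0.610), Tchh (-0.50, FDR = 0.630) and Tchhl1 (-0.53, FDR = 0.301). The log2 fold changes were 5.76 (FDR = 0.00648) for Flg and 3.92 (FDR = 0.00938) for Rptn. Woodrat 3 had the most Flg (171 CPM, against 8.01 and 24.8 CPM in woodrats 1 and 2), and without it the log2 fold change was 3.72. That of Rptn ran from 3.03 without woodrat 3 to 4.85 without lab rat 1. Flg passed only without woodrat 1 or woodrat 3, and Rptn only without woodrat 1 (FDR = 0.00781). Flg2 had 74 woodrat reads in all and 1 lab rat read, a ratio of 68.8 after normalization (95% interval of counting error 12.0 to 2750, FDR = 0.00289), and it passed with each woodrat left out in turn but not with any lab rat left out (FDR from 0.0132 to 0.0140). Loricrin (Lor), the main protein of the epidermal envelope and the uncalled gene of the list with the highest mean CPM, had 4484, 4098 and 4145 CPM in woodrats 1, 2 and 3 and 8151, 5702 and 9794 CPM in lab rats 1, 2 and 3. Each lab rat was above all woodrats, but the log2 fold change of -0.89 was not called (FDR = 0.107). With scaling to squamous genes, which moved the median of all genes to 1.90, that of Lor was 1.06.

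Of 17 enzymes and inhibitors that process envelope and filaggrin proteins, 15 were tested, with 1 called higher, 2 called lower and 12 not called. The called share was 20.0%, the same as that of all genes tested. Kallikrein 7 (Klk7), a serine protease of desquamation, had 293, 398 and 800.1 CPM in woodrats 1, 2 and 3 and 38.2, 41.7 and 7.70 CPM in lab rats 1, 2 and 3, a log2 fold change of 4.08 (FDR = 0.00274), and it was called in all 6 fits that left out 1 animal. Matriptase (St14), a membrane protease upstream of filaggrin processing, was lower in woodrats by a log2 fold change of -2.09 (FDR = 0.00303), with an FDR of 0.0153 without woodrat 2 and 0.0135 without lab rat 3. Cathepsin L (Ctsl), a lysosomal protease, had a log2 fold change of -2.08 (FDR = 0.00308), with an FDR of 0.0167 without woodrat 2 and 0.0107 without lab rat 1. With scaling to squamous genes, Ivl (-2.78, FDR = 0.0757), St14 (-0.68, FDR = 0.624) and Ctsl (-0.36, FDR = 0.807) were no longer called. That scaling moved the median log2 fold change of all genes to 1.90, and Klk7 (FDR = 0.00302), Flg, Flg2 and Rptn stayed called higher. In the TMM-normalized values, Ivl, St14 and Ctsl each separated the woodrats from the lab rats, as did 56.2% of all genes tested. That separation adds no support, since these genes were picked by their calls on the same values. Asprv1, a protease of filaggrin processing and the uncalled gene with the highest mean CPM, had a log2 fold change of 0.21 (FDR = 0.702), which was -0.17 without woodrat 3. None of the 10 genes of the lipid envelope was called by edgeR or DESeq2, against 20.0% and 31.1% of all genes. At an unadjusted p below 0.05, 1 was higher and none lower, against 49.7% of all genes in either direction. This was Alox12b, a lipoxygenase that prepares ceramides for attachment to the envelope, with 455, 558 and 956 CPM in woodrats 1, 2 and 3 and 332, 268 and 410 CPM in lab rats 1, 2 and 3 (log2 fold change 0.96, FDR = 0.0581).

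**Figure D5:**
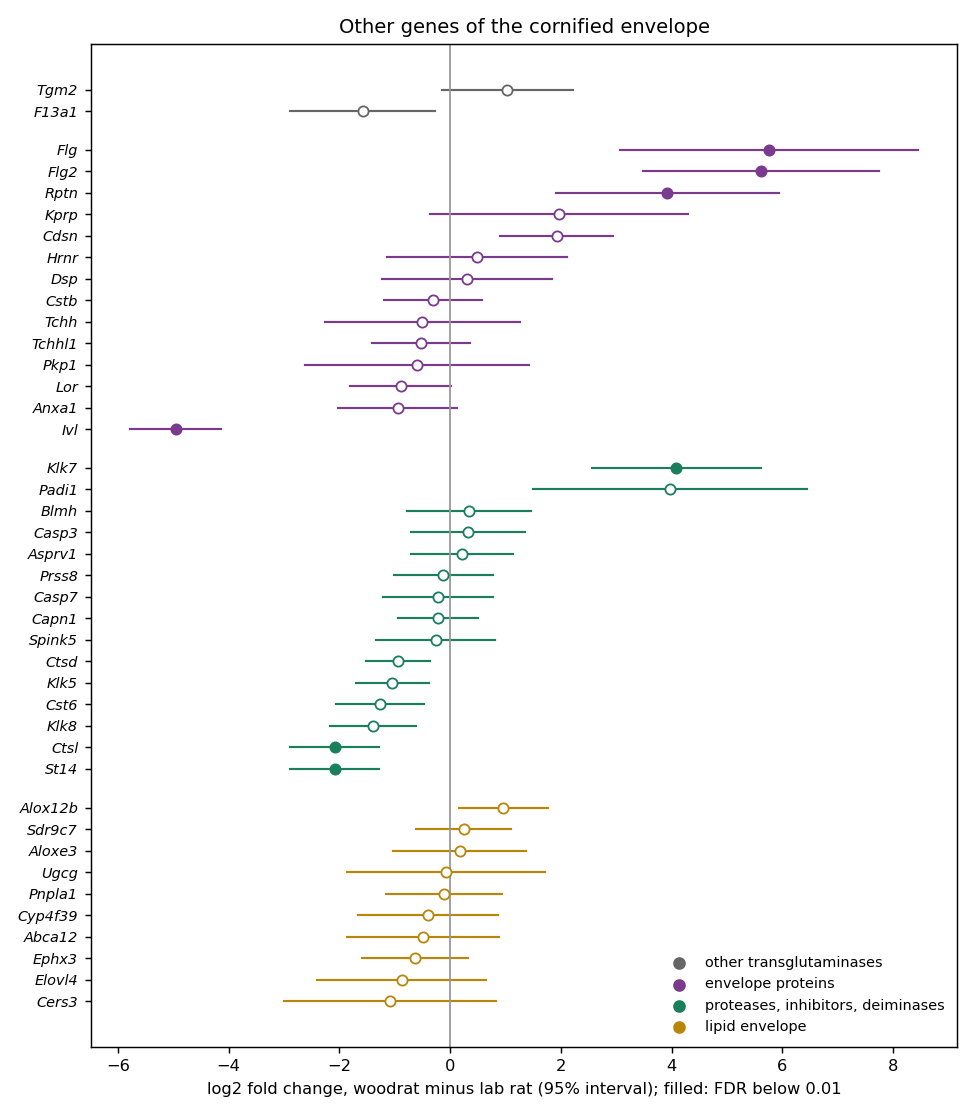
Points give the log2 fold change (woodrat minus lab rat) of the 41 tested genes of the wider lists, with bars for the 95% interval and filled points at an FDR below 0.01. Flg, Flg2, Rptn and Klk7 lie to the right, Ivl, Ctsl and St14 to the left, and the genes of the lipid envelope lie around 0. The point of Flg2 depends on the prior count of the fit, since lab rats had 1 read.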

How the data were processed

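Foregut RNA of 3 woodrats and 3 lab rats was grouped by the sample titles. The authors trimmed read pairs with Trimmomatic, merged them with FLASH, aligned them by strand with cross_match to mouse coding transcripts (GENCODE M7) and deposited raw counts of uniquely assigned reads per mouse gene, not normalized. Tool versions are not given in the sources used here. Reads that diverge too far from mouse are not counted, and how this acts on each gene in each species was not tested. The files hold 0 genes without woodrat reads and 809 without lab rat reads, so genes read only in lab rats are missing from every background given here. No gene lengths or genome were used, so levels are not compared between genes per length, the ranks by CPM used for naming also follow length, and positions and sequences are not given.

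The 12603 genes that reached 1 CPM in 3 or more animals were tested with edgeR 4.0.16 in R 4.3.3, with TMM normalization, species as the only term, the quasi-likelihood F-test as it was before edgeR 4, and Benjamini-Hochberg adjustment over all tested genes. Calls were made at an FDR below 0.01, as in the study. Standard errors are the absolute log2 fold change divided by the square root of F. The 95% intervals use the total degrees of freedom of the test, which add prior degrees of freedom shared across genes to the residual ones. SDs of log2 CPM used a prior count of 2. The fit was run on simulated counts with the same dispersion for all genes and large changes. The 10 genes differ widely in spread, so that check does not bear on their results. No 2 animals of a species agreed within sampling noise (chi-square per degree of freedom 10.1 to 121). The p-values of the edgeR fit set the difference between the species against the spread between animals, moderated across genes. They cannot tell species from origin or diet.

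The 10 genes, the 4 wider lists and the 7 marker lists were chosen with earlier results of these data known. Of the wider lists, each called gene and the uncalled gene with the highest mean CPM were named. F13a1, Hrnr, Tchh, Tchhl1, Krt4 and the genes of the glandular stomach were named after their values were seen. Alternatives were DESeq2's size factors, total counts, scaling to 8 squamous markers (Cdh1, Jup, Perp, Sfn, Pkp3, Dsc3, Dsg3 and Trp63), a filter at 5 CPM, no filter, genes read in both species, the edgeR 4 method, DESeq2 1.42.0, the replicate number as a block, an FDR of 0.05 and each animal left out. A fit without woodrat 1 and lab rat 3 was added after seeing the data.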

Additional observations from a re-analysis of the deposited data

How the results depend on the processing

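Of the 10 genes, 1 was called with DESeq2's size factors, total counts, both other filters, genes read in both species and the edgeR 4 method. The count was 0 after scaling to squamous markers, with the replicate block and without woodrat 1 and lab rat 3, 2 with DESeq2 (both lower), 3 at an FDR of 0.05 (1 higher and 2 lower), and from 0 to 1 with 1 animal left out. Of the wider lists, 14 genes were called by DESeq2, 2 with the replicate block (Ivl and St14, while Klk7 had an FDR of 0.0184 and Ctsl of 0.0195), 13 at an FDR of 0.05, 4 without woodrat 1 and lab rat 3, and from 3 to 8 with 1 animal left out. Of all genes, 918 were called after scaling to squamous markers, 3916 by DESeq2, 716 with the block, 5026 at an FDR of 0.05, and from 898 (without woodrat 2) to 2626 (without woodrat 3) with 1 animal left out, with 936, 1050 and 1305 without lab rats 1, 2 and 3.

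Scaling to squamous markers moved the median log2 fold change of all genes to 1.90 and made 91.3% of calls higher in woodrats, against 51.4%. It changed the sign of 5 of the 10 genes and of Lor, and turned Tgm1 to 0.86, Evpl to 1.23, Cnfn to 0.56, Sbsn to 1.07, Casp14 to 0.27 and Lor to 1.06. Relative to that median, 9 of the 10 genes were lower, Krtdap by -2.66, and Tgm5 was higher by 0.83. With the block, Krtdap had an FDR of 0.0339 and Scel was -0.64. Without woodrat 1 and lab rat 3, Evpl was 0.41. With 1 animal left out, Tgm3 ran from -0.43 to 0.85, Evpl from -0.40 to 0.32, Ppl from -0.22 to 1.02, Scel from -1.41 to 0.69 and Asprv1 from -0.17 to 0.43. The cause was not tested.

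The replicate numbers did not pair the animals, since same-numbered animals deviated from their species means with correlations of -0.289, -0.0881 and -0.279. No direction of the 3 within-animal ratios changed. With 3 animals a species and SDs of log2 CPM of 2.01 for Scel and 1.82 for Casp14 among woodrats, differences of several-fold in those genes could not be separated from the spread between animals.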

Other observations

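The mean profile of the 10 genes over the 6 animals, taken from log2 CPM centered in each species, was also compared with every other gene tested. The 5 genes most like it were Tmem51 (r = 0.998), Ly6g6e (0.998), Tprg (0.998), 9530053A07Rik (0.996) and Tom1 (0.995). Tprg had 14.8, 32.3 and 65.4 CPM in woodrats 1, 2 and 3 and 157, 129 and 199.7 CPM in lab rats 1, 2 and 3, and Ly6g6e had 15.4, 29.0 and 41.8 CPM and 68.0, 59.1 and 77.8 CPM in the same animals. Both were lowest in woodrat 1 among the woodrats and highest in lab rat 3 among the lab rats. Among the 10 genes, Evpl (r = 0.973), Tgm1 (0.972) and Tgm5 (0.966) were most like their mean and Cnfn least (0.229). With 6 animals and 12603 genes, values of this size are a description only.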
